A study of Mus musculus with 6 samples.

Results

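The muscle miRNAs mmu-miR-1a-3p, mmu-miR-133a-3p, mmu-miR-133b-3p and mmu-miR-206-3p were followed in prefrontal cortex in a mouse model of postoperative neurocognitive disorder (PND). They were chosen by name, with earlier results of these data known, and all 4 were found among the 1189 entries of the small RNA libraries. The libraries came from 18-month-old wild-type male C57BL/6 mice, 3 in the PND group and 3 in the control (CON) group, with 1 library per mouse. Each PND mouse inhaled 1.5% isoflurane for 30 min before an exploratory laparotomy of 30 min under the same anesthetic, with 2.5% lidocaine cream and povidone iodine on the wound afterwards. CON mice received none of these treatments. Mice of both groups were taken through the same behavioral tests and, under a terminal isoflurane anesthesia that CON mice also received, were perfused with saline before the cortex was dissected. Since the earlier anesthesia and the surgery were always given together, their effects cannot be told apart here.

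miR-1, miR-133 and miR-206 are known as myomiRs, because they are abundant in muscle and serve the differentiation of muscle cells. miR-1 and miR-133a are made together from the same primary transcripts in heart and skeletal muscle, while miR-206 and miR-133b are paired in the same way and belong mainly to skeletal muscle. miR-208b and miR-499, the other classical members, lie inside myosin heavy chain genes. In brain tissue, reads of these miRNAs can be looked at as a readout of RNA from muscle, including muscle cells of vessels, or of low expression in neural cells, and the libraries do not tell these sources apart.

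RefSeq sequences (GRCm38.p6) were matched for 2 of the 4 miRNAs, miR-206-3p and miR-133b-3p. Their genes are neighbors on the plus strand of chromosome 1, Mir206 at chr1:20679010-20679082 and Mir133b at chr1:20682769-20682887. The gap between them is 3686 bases, and both lie in an exon of the lincRNA gene Gm28653 in GENCODE release M21. The mature sequences follow, 5′ to 3′, with the seed (bases 2 to 8, the part that pairs with target mRNAs) in capitals. They are shown because the seed decides which miRNAs can share targets. The sequence of miR-499-5p, the most abundant of the other muscle miRNAs here, and that of miR-208b-3p are set beside them.
miR-206-3p: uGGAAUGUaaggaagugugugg
miR-133b-3p: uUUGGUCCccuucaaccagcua
miR-499-5p: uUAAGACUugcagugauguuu
miR-208b-3p: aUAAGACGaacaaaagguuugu

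The paired miRNAs miR-206-3p and miR-133b-3p have different seeds, and only 4 of their 22 positions hold the same base. Among 1679 mature miRNA names in the RefSeq table, the seed of miR-206-3p was shared by miR-6349 and miR-6382, and neither had an entry in the libraries. The seeds of miR-1a-3p and miR-133a-3p were not compared, since their sequences were not matched, and miR-1 is known to have the seed of miR-206. The seeds of miR-499-5p and miR-208b-3p agree in their first 6 of 7 bases, and the seed of miR-208b-3p is that of miR-208a-3p, which had no entry. The hairpins of the chromosome 1 pair are printed below with the measured arm in capitals. It is the 3′ arm in both, and the 5′ arms, miR-206-5p and miR-133b-5p, were not among the entries.
Mir206: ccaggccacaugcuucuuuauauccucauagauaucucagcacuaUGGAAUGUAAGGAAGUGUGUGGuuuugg
Mir133b: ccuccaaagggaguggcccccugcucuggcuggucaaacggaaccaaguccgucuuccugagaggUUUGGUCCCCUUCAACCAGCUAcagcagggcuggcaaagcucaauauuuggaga

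miR-1a-3p and miR-133a-3p can each be made from 2 genes. Mir1a-1 (ENSMUSG00000070144.1) and Mir133a-2 (ENSMUSG00000065460.1) are neighbors on the plus strand of chromosome 2 in GRCm38, at chr2:180389048-180389124 and chr2:180398379-180398482, with 9254 bases between them and no annotated gene around them. The other copies, Mir1a-2 and Mir133a-1, give the same mature miRNA, so the reads do not say which copy was active. miR-133a-3p and miR-133b-3p are also near-identical, and the rule by which the authors assigned reads that match several miRNAs is not given in the sources used here. The split of reads between miR-133a-3p and miR-133b-3p is therefore uncertain.

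The values are CPM, the reads of a miRNA per 1000000 reads on all listed miRNAs. The PND libraries held between 17600766 and 19471226 reads and the CON libraries between 14849461 and 16093467, so each PND library was deeper than each CON library. A count of 3 reads, the upper limit that a count of 0 allows, was 0.154 to 0.202 CPM. Intervals given for single libraries are exact 95% binomial intervals and cover counting error only. Neuronal miRNAs were abundant, with 4018 to 6178 CPM of miR-124-3p, and miR-128-3p took 17.6% to 29.2% of a library. CON mouse 1 stood apart in the sum of 10 epithelial and olfactory miRNAs, 1751 CPM there and between 165 and 321 CPM in the other mice. It was far above the others in 8 of them (the miR-200 and miR-183 families) but not in miR-203-3p or miR-205-5p.

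miR-1a-3p was by far the most abundant of the muscle miRNAs. It had 483, 579 and 562 CPM in PND mice 1, 2 and 3 (9406, 10193 and 9951 reads), and 396, 547 and 575 CPM in CON mice 1, 2 and 3 (6053, 8121 and 9250 reads). CON mouse 1 was the lowest and PND mouse 2 the highest, and the groups overlapped. With a mean of 524 CPM it held rank 101 of the 1189 entries. It made up between 95.9% and 97.3% of the sum of the 4 miRNAs in every mouse. For scale, miR-124-3p had 7.35 to 14.9 times as many reads as miR-1a-3p, and miR-1a-3p had 0.0569 to 0.0796 times the reads of miR-143-3p, a miRNA of vascular smooth muscle and mural cells. In tissue of mixed cells, fewer cells of a type and less RNA per cell cannot be told apart.

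miR-133a-3p, its partner in the gene cluster, was far lower. It had 14.3, 16.8 and 16.1 CPM in PND mice 1, 2 and 3 (278, 295 and 286 reads) and 13.6, 12.5 and 12.6 CPM in CON mice 1, 2 and 3 (208, 186 and 202 reads). All PND mice lay above all CON mice, although the gap between PND mouse 1 and CON mouse 1 was small. Their counting intervals, 12.6 to 16.1 CPM and 11.8 to 15.6 CPM, overlapped. miR-133a-3p held rank 326, and miR-1a-3p had between 29.1 and 45.8 times as many reads in each mouse. This ratio was 33.8, 34.6 and 34.8 for PND and 29.1, 43.7 and 45.8 for CON, so the PND mice lay close together, between the lowest and the other CON mice. Reads of different miRNAs can differ in how well they are captured, and a ratio of reads need not be a ratio of molecules.

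miR-206-3p, the miRNA of skeletal muscle, had 4.72, 5.51 and 3.67 CPM in PND mice 1, 2 and 3 (92, 97 and 65 reads). In CON mice 1, 2 and 3 it had 3.08, 2.49 and 5.34 CPM (47, 37 and 86 reads). CON mouse 3 reached the level of the higher PND mice, while the other CON mice were the lowest of the 6. The counting interval was 4.27 to 6.60 CPM in CON mouse 3 and 1.75 to 3.43 CPM in CON mouse 2, so these CON mice differed by more than counting error. miR-206-3p held rank 412.

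miR-133b-3p, the partner of miR-206-3p, was the least abundant of the 4. It had 0.616, 0.852 and 0.282 CPM in PND mice 1, 2 and 3 (12, 15 and 5 reads) and 0.262, 0.404 and 0.373 CPM in CON mice 1, 2 and 3 (4, 6 and 6 reads). PND mice 1 and 2 were the highest, and PND mouse 3 was the second lowest of the 6. With so few reads the counting intervals of all mice overlapped, from 0.318 to 1.08 CPM in PND mouse 1 and from 0.0714 to 0.670 CPM in CON mouse 1. miR-133b-3p held rank 662, and miR-133a-3p had 19.7 to 57.2 times as many reads.

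**Figure D1:**
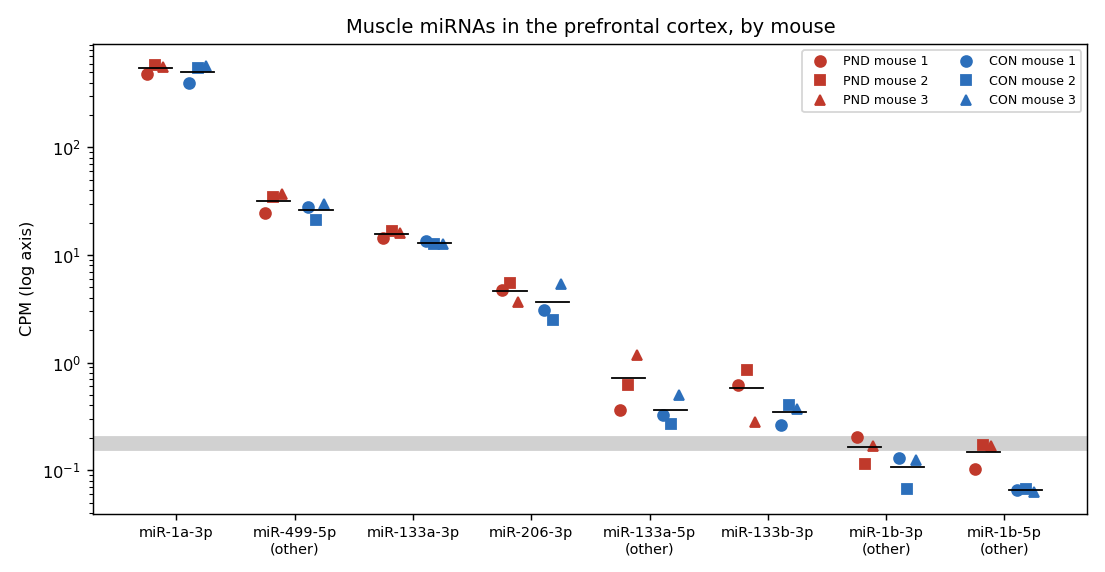
CPM on a log axis of the 4 muscle miRNAs and of 4 other listed arms of the family in each mouse, with PND in red, CON in blue, a symbol for each mouse number and a black line for each group mean. The gray band marks 3 reads (0.154 to 0.202 CPM), and miR-1a-3p lies at 396 to 579 CPM, above every other member.

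The order of the levels was the same in every mouse for the members. miR-1a-3p, miR-133a-3p, miR-206-3p and miR-133b-3p followed each other, and no range over the 6 mice overlapped the next, as the lowest miR-133a-3p value was 12.5 CPM and the highest miR-206-3p value 5.51 CPM. With the other arms put in the same order, miR-499-5p came between miR-1a-3p and miR-133a-3p. The ranges of miR-133a-5p and miR-133b-3p overlapped, and miR-133a-5p was the higher in 3 of the 6 mice.

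Of 14 other arms and members of the muscle family, 5 had an entry and 9 had none. miR-499-5p, whose gene Mir499 lies in an intron of the myosin gene Myh7b (chr2:155622880-155622958), had 24.8, 34.3 and 36.9 CPM in PND mice 1, 2 and 3 and 28.0, 21.0 and 30.1 CPM in CON mice 1, 2 and 3, and the groups overlapped. miR-133a-5p, the other arm of the miR-133a hairpins, had 7, 11 and 21 reads in PND mice 1, 2 and 3 and 5, 4 and 8 in CON mice 1, 2 and 3, and the 3′ arm had 13.6 to 46.5 times as many. miR-1b-3p had between 1 and 4 reads in each mouse and miR-1b-5p between 1 and 3, and both were near the level of 3 reads. miR-208b-3p, from an intron of the heart and slow muscle myosin gene Myh7, had 4 and 2 reads in PND mice 1 and 2. It had 0 reads in the other 4 mice, which allows up to 0.169 CPM in PND mouse 3 and up to between 0.186 and 0.202 CPM in the CON mice. miR-208a-3p, miR-208a-5p, miR-208b-5p, miR-499-3p, miR-1a-1-5p, miR-1a-2-5p and miR-133c were among the arms without an entry.

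The spread over the mice was next set against counting error. The coefficient of variation over the 6 mice was 13.7% for miR-1a-3p, where the reads alone would give 1.06%, so nearly all of its spread came from differences between libraries. It was 12.6% for miR-133a-3p (counting error 6.42%), 30.1% for miR-206-3p (11.9%) and 49.0% for miR-133b-3p (35.4%). Entries with a mean within 2-fold of the member had a median coefficient of 11.9% around miR-1a-3p, 16.0% around miR-133a-3p, 20.1% around miR-206-3p and 45.7% around miR-133b-3p. miR-206-3p thus varied more than 80.3% of the 122 entries of like abundance, and miR-133a-3p more than 31.6% of 114. These shares are descriptions of the libraries without a test.

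**Figure D2:**
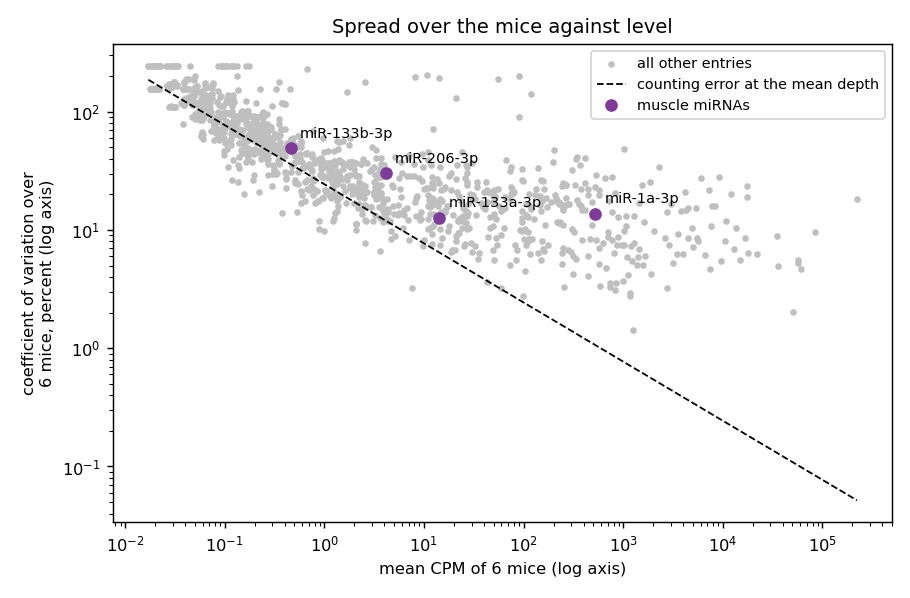
Coefficient of variation over the 6 mice (percent, log axis) against mean CPM (log axis) for all entries in gray and the 4 muscle miRNAs in purple, with the counting error at the mean depth as a dashed line. miR-133b-3p at 49.0% lies nearest to the line, and miR-1a-3p at 13.7% lies far above its counting error of 1.06%.

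PND was then compared with CON to see whether anesthesia and surgery changed the muscle miRNAs. None of the 4 passed the limits of the comparison, an unadjusted p under 0.05 and a change of more than 2-fold, in limma on log2(CPM + 1), and 0 of the 4 had an unadjusted p under 0.05. Over all 1189 entries, 61 had an unadjusted p under 0.05 (5.13%), 1 passed both limits (0.0841%) and 5 had a Benjamini-Hochberg adjusted p under 0.05 (0.421%). In edgeR's quasi-likelihood test and in DESeq2 on recovered reads, 0 of the 4 had an unadjusted p under 0.05 as well. Fold changes on the log2(CPM + 1) scale understate the change of miR-206-3p and miR-133b-3p, which have few reads. The 2-fold limit on this scale is therefore stricter than 2-fold for them. For miR-133b-3p, with a CON mean of 0.346 CPM, failing this limit says little. In edgeR's quasi-likelihood test 32 of all entries passed both limits, and 0 of the 4 did.

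miR-1a-3p averaged 541 ± 51.2 CPM over the PND mice (SD, n = 3) and 506 ± 96.0 CPM over the CON mice (SD, n = 3), a difference of 6.99% of the CON mean. The log2 fold change was 0.11 (standard error 0.16, 95% interval -0.26 to 0.49, adjusted p = 0.86 from limma). The difference was smaller than the spread over mice, with p = 0.6 in the exact permutation test (two-sided). It turned to -0.05 without CON mouse 1, the mouse with 1751 CPM of epithelial and olfactory miRNAs, whose part in the result was not tested. It also turned to -0.01 with TMM factors and to -0.04 with DESeq2 size factors. The interval reaches from 0.833-fold to 1.40-fold, so a moderate change in either direction would not have been detectable with 3 mice per group.

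miR-133a-3p averaged 15.7 ± 1.29 CPM over the PND mice (SD, n = 3) and 12.9 ± 0.622 CPM over the CON mice (SD, n = 3), which was 21.9% above the CON mean. Its log2 fold change was 0.27 (standard error 0.14, 95% interval -0.06 to 0.59, adjusted p = 0.77 from limma), and p was 0.1 in the exact permutation test (two-sided), which cannot go lower with 3 mice per group. The groups did not overlap, which was also the case, with higher values in PND, for 94 of the 1189 entries (7.91%). The adjusted p was between 0.57 and 0.98 in the other settings. With TMM factors the PND values were 14.3, 15.8 and 15.1 and the CON values 13.2, 14.6 and 12.6, so that CON mouse 2 rose above PND mouse 1 and the groups overlapped. The same held with DESeq2 size factors.

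The values in CPM depend on the total of each library, of which miR-128-3p took up to 29.2%, in CON mouse 2. The median log2 fold change of the 361 entries averaging at least 10 CPM was 0.14 in CPM, 0.02 with TMM factors and -0.01 with DESeq2 size factors. Relative to this median, miR-133a-3p was higher by 0.13 in CPM, 0.13 with TMM factors and 0.13 with DESeq2 size factors, and miR-1a-3p differed from it by -0.02, -0.03 and -0.03. A scaling factor moves all entries of a library alike, so these differences from the median are nearly fixed by construction, whereas the direction of miR-1a-3p and the gap between the groups for miR-133a-3p changed with the scaling. When miR-128-3p was left out of the total, the miR-133a-3p groups did not overlap, with 18.6, 20.7 and 19.6 reads per 1000000 for PND and 17.6, 17.7 and 16.0 for CON.

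**Figure D3:**
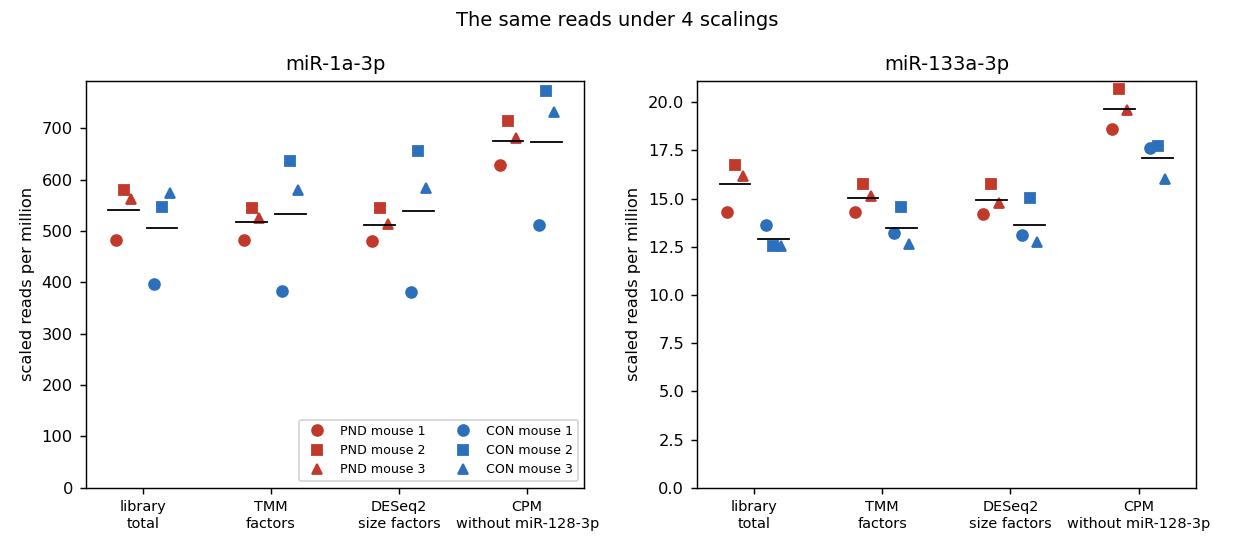
miR-1a-3p (left) and miR-133a-3p (right) in each mouse, as reads per 1000000 scaled by the library total, by TMM factors, by DESeq2 size factors and by the total without miR-128-3p, with PND in red, CON in blue and black lines for group means. For miR-133a-3p the groups are apart in the first and last scaling and overlap in the middle pair, where CON mouse 2 lies above PND mouse 1.

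miR-206-3p averaged 4.64 ± 0.924 CPM over the PND mice (SD, n = 3) and 3.64 ± 1.51 CPM over the CON mice (SD, n = 3). Its PND mean was 27.4% above the CON mean. The log2 fold change was 0.32 (standard error 0.26, 95% interval -0.29 to 0.92, adjusted p = 0.77 from limma), and the exact permutation test gave p = 0.4 (two-sided). Without CON mouse 3, whose value was the highest CON value, it was 0.57 with an unadjusted p of 0.0422 and an adjusted p of 0.66 from limma. miR-133b-3p averaged 0.584 ± 0.286 CPM over the PND mice and 0.346 ± 0.0747 CPM over the CON mice (SD, n = 3 each). Its PND mean was 68.6% above the CON mean. The log2(CPM + 1) scale understates this difference, and an interval on that scale does not bound the ratio of the means, 1.69. The log2 fold change of miR-133b-3p was 0.22 (standard error 0.14, 95% interval -0.12 to 0.56, adjusted p = 0.77 from limma), with p = 0.3 in the exact permutation test (two-sided). Without PND mouse 3, which had 5 reads, it was 0.36 with an unadjusted p of 0.0189 and an adjusted p of 0.94 from limma.

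**Figure D4:**
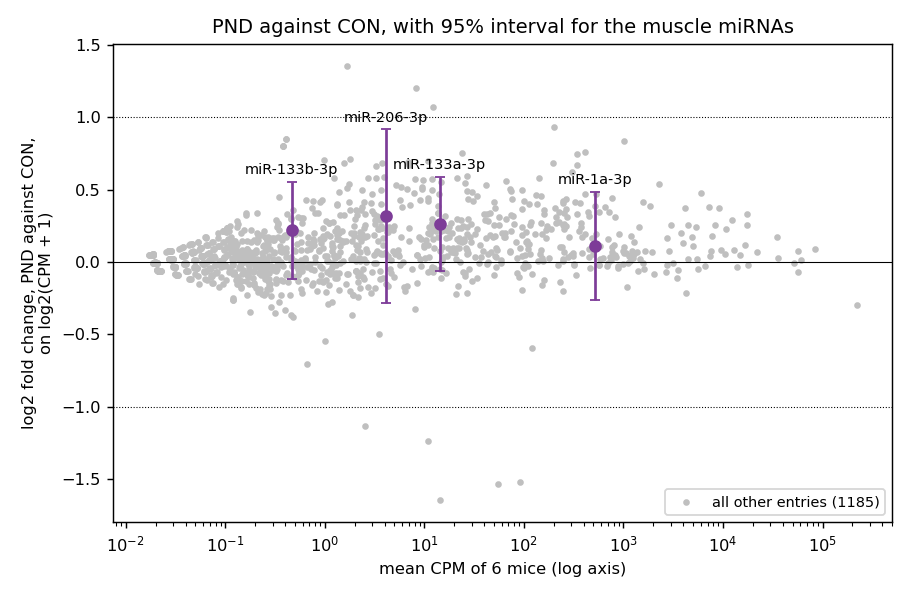
Log2 fold change of PND against CON on log2(CPM + 1) against mean CPM (log axis), with all other entries in gray and the 4 muscle miRNAs in purple with 95% intervals from limma. All 4 intervals include 0, and dotted lines mark a 2-fold change.

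All 4 muscle miRNAs had a log2 fold change above 0, with a median of 0.24. A log2 fold change above 0 was also found for 776 of all 1189 entries (65.3%), whose median was 0.05, and for 286 of the 361 entries averaging at least 10 CPM (79.2%). The 5 other listed members of the muscle family had values above 0 as well, with a median of 0.14 and none with an unadjusted p under 0.05. Among these 5, the groups did not overlap for 1, miR-1b-5p, while 7.91% of all entries lay higher in all PND mice. miR-1b-5p had 1 to 3 reads per mouse. Its counting intervals overlapped, for example 0.0352 to 0.498 CPM in PND mouse 2 and 0.00166 to 0.365 CPM in CON mouse 1. The direction shared by the muscle miRNAs in CPM was thus also that of most abundant entries.

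Marker lists of other cell types were set beside these values. The 4 listed miRNAs of smooth muscle and mural cells, miR-143 and miR-145a arms, summed to 8780 to 9952 CPM in the PND mice and to 6736 to 9725 CPM in the CON mice, and none of them was at 0 in any mouse. Of these 4, 2 lay higher in all PND mice than in all CON mice (7.91% of all entries) and 1 had an unadjusted p under 0.05 in limma (5.13% of all entries). Of the 5 leukocyte and microglial miRNAs, 1 (miR-142a-5p) also lay higher in all PND mice (7.91% of all entries). Log2 fold changes were above 0 for 3 of these 5 (65.3% of all entries), and below 0 for miR-223-3p (-0.23) and miR-146a-5p (-0.009). Of the 5 red blood cell miRNAs, 1 (miR-486b-5p) lay higher in all PND mice (7.91% of all entries). All 5 had log2 fold changes above 0 (65.3% of all entries). For miR-451a, miR-144-3p and miR-144-5p, PND mouse 1 had 797, 13 and 31 reads, and every other mouse had at most 47, 1 and 4. The part of these lists in the miR-133a-3p difference was not tested. The endothelial arms of miR-126a summed to 13326 to 13992 CPM and to 11991 to 14372 CPM. The red blood cell miRNAs summed to 112 to 191 CPM in PND and 84.9 to 117 CPM in CON, with miR-144-3p at 0 in PND mouse 2 and CON mice 2 and 3. miR-451a, a miRNA of maturing red blood cells, had 40.9 CPM in PND mouse 1 and between 0.621 and 3.08 CPM in the others, and PND mouse 1 was the lowest PND mouse for both miR-1a-3p and miR-133a-3p. Sums were 1019 to 1200 and 1058 to 1159 CPM for leukocyte and microglial miRNAs, 1079 to 1107 and 733 to 1220 CPM for those of choroid plexus and ependyma, and 1575 to 1765 and 1384 to 1607 CPM for those of oligodendrocytes. The 7 neuronal miRNAs summed to 293175 to 328291 CPM in PND and 320007 to 383851 CPM in CON. miR-128-3p was most of this sum, with a log2 fold change of -0.29, and miR-132-3p (-0.07) and miR-129-5p (-0.03) were also below 0. The other 4, miR-124-3p (0.24), miR-138-5p (0.32), miR-9-3p (0.17) and miR-9-5p (0.09), had log2 fold changes above 0. None of the 7 had an unadjusted p under 0.05 in limma. miR-122-5p of liver had 11.1 to 14.1 CPM over the 6 mice, so that miR-133a-3p lay near the level of this liver miRNA in the cortex. The groups overlapped in the summed level of each of these lists, though not in every single entry, as counted above. Library depth did not overlap between the groups. The part of depth in the miR-133a-3p difference was not tested either.

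Finally, co-variation over the 6 mice was examined for the 6 pairs of members, on log2(CPM + 1). No pair passed an exact permutation test, and the adjusted p was at least 0.62 for Pearson's r and at least 0.53 for Spearman's rho. miR-1a-3p and miR-133a-3p, which share primary transcripts, had r = 0.22 (exact permutation p = 0.75, adjusted p = 0.75) and rho = 0.37 (exact permutation p = 0.50, adjusted p = 0.56). Without the mice farthest from the median of miR-1a-3p, PND mouse 1 and CON mouse 1, r was 0.44 over 4 mice. The mice with high miR-1a-3p fell into PND mice 2 and 3 with more than 16 CPM of miR-133a-3p and CON mice 2 and 3 with less than 13 CPM.

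miR-206-3p and miR-133b-3p had the highest r of the 6 pairs, 0.61 (exact permutation p = 0.20, adjusted p = 0.62), with rho = 0.54 (exact permutation p = 0.30, adjusted p = 0.53). This r was 0.03 without PND mice 1 and 2, over only 4 mice, and 0.39 to 0.80 with each mouse left out in turn. CON mouse 3 had the second highest miR-206-3p level but only 6 reads of miR-133b-3p. miR-1a-3p and miR-206-3p, known to share a seed, had r = 0.40 (exact permutation p = 0.50, adjusted p = 0.62) and rho = 0.71 (exact permutation p = 0.14, adjusted p = 0.53). Without PND mouse 1 and CON mouse 1, r of this pair was 0.996 over the 4 mice left, a number too small for a statement. For the remaining pairs, r was 0.36 between miR-1a-3p and miR-133b-3p (rho = 0.49), 0.46 between miR-133a-3p and miR-133b-3p (rho = 0.31) and 0.38 between miR-133a-3p and miR-206-3p (rho = 0.60). Their exact permutation p values were 0.52, 0.34 and 0.43 for r and 0.36, 0.56 and 0.24 for rho, and without the mice farthest from the median r was 0.54, 0.45 and 0.21. When the deviations from the group means were used, r was -0.06 for miR-1a-3p with miR-133a-3p and 0.47 for miR-206-3p with miR-133b-3p.

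**Figure D5:**
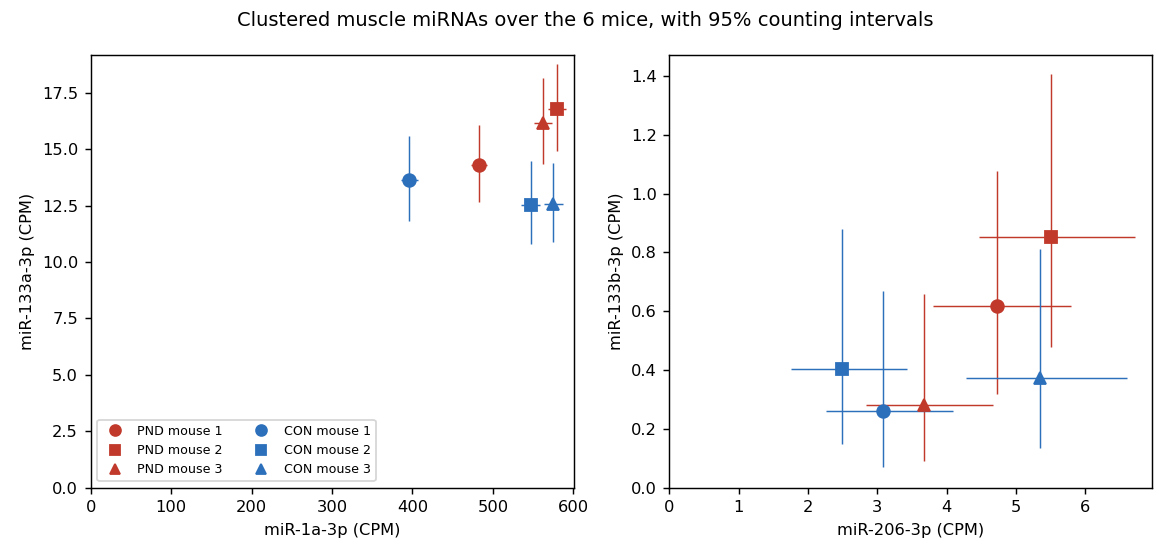
CPM of miR-133a-3p against miR-1a-3p (left) and of miR-133b-3p against miR-206-3p (right) in the 6 mice, with PND in red, CON in blue and bars for exact 95% binomial counting intervals. On the left, mice with 547 to 579 CPM of miR-1a-3p have either 12.5 to 12.6 or 16.1 to 16.8 CPM of miR-133a-3p, and on the right the intervals of miR-133b-3p overlap in all mice.

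The entries most like each member were found among 359 other entries averaging at least 10 CPM, by Pearson's r of log2(CPM + 1) over the 6 mice. The likeness is a description, since the best of many candidates were picked by their r over 6 mice, and all values share the library totals. For miR-1a-3p these were let-7g-5p (r = 0.91), miR-30e-3p (0.90), let-7a-1-3p (0.89), miR-145a-3p (0.87) and miR-340-3p (0.85). Of these, miR-145a-3p is on the list of smooth muscle and mural cells. For miR-133a-3p they were miR-181d-5p (r = 0.98), miR-185-5p (0.95), miR-26b-5p (0.94), miR-674-5p (0.93) and miR-181a-5p (0.90), none of which is on a marker list. For miR-206-3p they were miR-532-5p (r = 0.92), miR-106b-3p (0.91), miR-219a-2-3p (0.91), let-7i-5p (0.89) and the endothelial miR-126a-3p (0.88). For miR-133b-3p they were miR-25-3p (r = 0.89), miR-338-5p (0.88), miR-219a-2-3p (0.84), miR-181b-5p (0.79) and miR-30a-3p (0.73). miR-219a-2-3p, a miRNA of oligodendrocytes, stood on the lists of both miR-206-3p and miR-133b-3p, and no entry stood on the lists of both miR-1a-3p and miR-133a-3p.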

How the data were processed

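Small RNA libraries of the prefrontal cortex of 3 PND and 3 CON mice were grouped by the sample labels, whose names carry 17 months where the recorded age is 18 months. The authors, per their methods, filtered reads with fastx, aligned them with Bowtie (version 0.12.2 in the submitters' processing notes) and took miRNAs from miRBase, with edgeR and limma for differences. The notes name the builds mm8 and mm9 without a role. The authors deposited 1 CPM value per miRNA and mouse, called TPM in the paper, and each column sums to between 999998.48 and 999999.48, so no TMM scaling is left in it. In each library 100% of the values were whole reads within 0.05, and these recovered reads gave depth, intervals and count tests. No pair of libraries of the same group agreed within sampling noise (chi-square per degree of freedom 81.7 to 429). The labels name a kit for total RNA and the methods a small RNA kit.

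All 1189 entries were tested with limma 3.58.1 (trend) in R 4.3.3, on log2(CPM + 1), without covariates. Limits were an unadjusted p under 0.05 and a 2-fold change, as in the methods, with Benjamini-Hochberg adjustment over every entry tested. Single miRNAs were compared by exact permutation tests in scipy 1.17.1. Alternatives were a pseudocount of 0.1, a mean of at least 10 CPM, 10 reads in 3 libraries, limma without trend, TMM and DESeq2 size factors, the replicate number as a block, edgeR 4.0.16 (quasi-likelihood), DESeq2 1.42.0 and limma-voom on recovered reads, and leaving out each mouse. A total without miR-128-3p was added after the data were seen. The limma, edgeR and DESeq2 tests were checked on simulated reads with planted changes larger than those of the 4 miRNAs. This check does not show how the tests behave at smaller changes. Named entries were the 4 miRNAs, the marker lists and the 5 entries most like each miRNA. The members and lists were chosen with earlier results of these data known.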

Additional observations from a re-analysis of the deposited data

How the results depend on the processing

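None of the 4 muscle miRNAs passed both limits or had an adjusted p under 0.05 in any of the settings run. miR-133b-3p was not tested with a mean of at least 10 CPM or with 10 reads in 3 libraries, and miR-206-3p was not tested with the former, because they did not pass these filters. The direction of miR-1a-3p was the least stable. Its log2 fold change was 0.11 in the main test, and it was -0.011 with TMM factors, -0.040 with DESeq2 size factors, -0.042 in edgeR's quasi-likelihood test, -0.0081 in limma-voom and -0.075 in DESeq2. With each mouse left out in turn it lay between -0.055 and 0.21, below 0 without CON mouse 1. The other miRNAs kept a log2 fold change above 0 in every setting in which they were tested. Left-out mice gave 0.22 to 0.33 for miR-133a-3p, 0.10 to 0.36 for miR-133b-3p and 0.13 to 0.57 for miR-206-3p. For miR-133b-3p, 0.22 in the main test, the value was 0.53 with a pseudocount of 0.1, 0.62 in edgeR, 0.60 in DESeq2 and 0.48 in limma-voom. An unadjusted p under 0.05 was found for miR-133a-3p in limma without trend and without PND mouse 1, for miR-133b-3p without PND mouse 3, and for miR-206-3p without CON mouse 3. In these settings 57, 88, 52 and 78 of all 1189 entries had an unadjusted p under 0.05. Each mouse left out there was the lowest PND or the highest CON mouse for that miRNA. Over all entries, 1 passed both limits in the main test, 22 did with a pseudocount of 0.1, 32 in edgeR's quasi-likelihood test, 32 in limma-voom, 11 in DESeq2, 2 with the replicate block and 0 in limma without trend and in entries averaging at least 10 CPM. The adjusted count of 5 became 0 without trend, with either filter and with the block, was 5 in edgeR's quasi-likelihood test, and ranged from 0 to 3 as single mice were dropped.

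Among the correlations, that of miR-133a-3p with miR-206-3p was -0.027 with TMM factors. With deviations from the group means, r was -0.059 for miR-1a-3p with miR-133a-3p, -0.076 for miR-133a-3p with miR-133b-3p and -0.067 for miR-133a-3p with miR-206-3p. With each mouse left out, r lay between -0.020 and 0.47 for miR-1a-3p with miR-133a-3p, -0.13 and 0.53 for miR-1a-3p with miR-133b-3p, 0.10 and 0.73 for miR-1a-3p with miR-206-3p, -0.15 and 0.84 for miR-133a-3p with miR-133b-3p, 0.05 and 0.79 for miR-133a-3p with miR-206-3p, and 0.39 and 0.80 for miR-133b-3p with miR-206-3p. The first pair fell below 0 without PND mouse 2, as did miR-133a-3p with miR-133b-3p, and miR-1a-3p with miR-133b-3p did so without CON mouse 1. The cause of these changes was not tested.

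The labels number the mice 1 to 3 in both groups. The deviations of same-numbered mice from their group means had correlations of -0.13, 0.12 and 0.51 over 361 entries, and PND mouse 1 correlated best with CON mouse 2, so the mice were taken to share only a number. When the replicate block was fitted in limma, the log2 fold change of miR-133a-3p was 0.27 (SE 0.18, adjusted p 0.77), no call of a member changed, and 56 entries had an unadjusted p under 0.05. Depth limits miR-133b-3p most, at 4 to 15 reads per mouse.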

Other observations

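Each of the 4 muscle miRNAs was also set against the summed level of 10 lists, which gave 40 relations over the 6 mice. The lists were the other listed members of the muscle family and the marker lists of other cell types. The strongest relation was that of miR-206-3p with the summed oligodendrocyte miRNAs miR-219a-5p, miR-219a-2-3p and miR-338-3p. This sum was mostly miR-219a-2-3p, with a mean of 1288 CPM against 266 CPM for miR-338-3p and 6.93 CPM for miR-219a-5p. miR-219a-2-3p was already among the entries most like miR-206-3p (r = 0.91). The mice stood in the same order for miR-206-3p and the sum, with rho = 1 and r = 0.93 (exact permutation p = 0.0028 for each, two-sided, and 0.11 after Benjamini-Hochberg adjustment over the 40 relations). Without PND mouse 2 and CON mouse 2, the mice farthest from the median of the list, r was 0.86 over 4 mice. With TMM factors, r was 0.66 and rho 0.60, so the relation was weaker once the scaling was changed. No relation had an adjusted p under 0.05. With the smooth muscle and mural list, miR-206-3p had r = 0.75 and rho = 0.54 (exact permutation p = 0.14 and 0.30, adjusted p = 0.60 and 0.62). With TMM factors, r was 0.61 and rho 0.71, and without CON mice 1 and 2, r was -0.47 over only 4 mice. With the same list miR-1a-3p had r = 0.69 and rho = 0.71 (exact permutation p = 0.15 and 0.14, adjusted p = 0.60 and 0.62). Its r was 0.65 without CON mice 1 and 2, and with TMM factors r was 0.71 while rho was 0.26. For miR-133a-3p and miR-133b-3p with this list, r was 0.47 and 0.26 over the 6 mice, and -0.11 and -0.84 without CON mice 1 and 2.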
